A study of Mus musculus with 16 samples.

Results

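The potassium channel genes of sorted mouse cardiomyocytes (CMs) were compared, except those for the pores of the ATP-sensitive (KATP) channel and of the main cardiac G protein-gated (GIRK) channel. Members were chosen by symbol alone, as every gene name on the microarray that begins with Kcn, further letters and a number, without *Kcnj3*, *Kcnj5*, *Kcnj8*, *Kcnj11* and the non-coding *Kcnq1ot1*. This gave 89 of 31982 gene names and 134 of 55681 probes. The rule kept *Kcnj6* and *Kcnj9*, which also encode GIRK subunits. For 37 genes with several probes, up to 5 per gene, the probe with the highest mean log2 signal over all 16 arrays stood for the gene.

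All cells came from wild-type CD1 mice. At embryonic day (E) 15.5, cells that carried the CM surface protein ERBB-2 were flow sorted by how much of the integrin subunit ITGA6 they carried into the groups EL (ERBB-2+/ITGA6low) and EH (ERBB-2+/ITGA6high). At postnatal day (P) 2, non-myocytes were first depleted with magnetic beads, and the remaining cells were sorted by ITGA6 alone into PL (ITGA6low) and PH (ITGA6high). Each group had 4 arrays from separate sorts, each from a pool of 20 to 30 embryonic or 15 neonatal hearts, so that a value is a mean over many animals and over all cells of a gate. The arrays of a group are named here by the sample numbers of the labels (2, 3, 6 and 8 at E15.5 and 2, 3, 4 and 5 at P2). These are called experiment numbers below, although the labels do not say that arrays of equal number share a sort. Used as a block, the number pairs the fractions within each stage. This includes P2, where the signals bear out such pairs only in part. Stage differs together with the sorting procedure and with the slide, and these cannot be told apart.

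Potassium channels let potassium ions leave the cell, which ends the action potential and holds the resting membrane potential. In CMs, inward rectifiers of the Kcnj family set the resting potential, transient outward channels of the Kcnd family with their partner Kcnip2 start repolarization, the delayed rectifiers Kcnh2 and Kcnq1 complete it, and 2-pore channels of the Kcnk family carry a background current. Atrial action potentials are shorter than ventricular action potentials, and these currents differ between the chambers and mature around birth.

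The promoters of the 4 genes that differed at least 3-fold between the P2 fractions are shown to give the sequence before the annotated start of each gene. The start used in these cells was not measured. *Kcnj4* and *Kcnip2* were lower in PH than in PL, whereas *Kcnh7* and *Kcnmb4* were higher. Each stretch covers the 250 bases before the gene's start in RefSeq (GRCm38.p6, minus strand, written 5′ to 3′ along the gene), and capitals mark matches to GGGCGG (the GC box) or CCAAT (the CCAAT box) on either strand. They lie at chr15:79505242-79505491, chr19:45816064-45816313, chr2:63184288-63184537 and chr10:116473524-116473773, in this order.
Kcnj4: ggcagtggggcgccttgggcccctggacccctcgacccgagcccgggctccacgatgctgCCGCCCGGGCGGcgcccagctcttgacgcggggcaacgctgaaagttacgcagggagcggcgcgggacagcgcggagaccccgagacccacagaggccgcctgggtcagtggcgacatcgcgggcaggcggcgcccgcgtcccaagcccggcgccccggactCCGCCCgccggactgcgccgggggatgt
Kcnip2: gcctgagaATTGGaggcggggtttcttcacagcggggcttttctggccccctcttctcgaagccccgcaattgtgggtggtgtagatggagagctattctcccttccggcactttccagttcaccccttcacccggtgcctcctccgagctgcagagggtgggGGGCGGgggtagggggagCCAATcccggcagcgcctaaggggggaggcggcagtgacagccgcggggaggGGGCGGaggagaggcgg
Kcnh7: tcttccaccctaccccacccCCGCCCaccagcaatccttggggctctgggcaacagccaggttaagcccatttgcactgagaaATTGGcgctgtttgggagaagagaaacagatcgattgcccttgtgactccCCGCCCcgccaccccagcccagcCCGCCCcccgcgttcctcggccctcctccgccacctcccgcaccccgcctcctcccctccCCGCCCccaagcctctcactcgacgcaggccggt
Kcnmb4: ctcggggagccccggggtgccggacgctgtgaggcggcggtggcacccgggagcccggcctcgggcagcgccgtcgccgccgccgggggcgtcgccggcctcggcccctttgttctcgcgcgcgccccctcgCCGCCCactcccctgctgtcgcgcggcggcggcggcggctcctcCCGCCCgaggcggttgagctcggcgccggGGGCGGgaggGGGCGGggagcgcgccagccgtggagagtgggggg

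All 4 stretches held the GC box, 3 times in *Kcnj4*, 2 times in *Kcnip2* and 4 times each in *Kcnh7* and *Kcnmb4*, and their share of G and C was 77.2%, 66.8%, 67.6% and 83.6%. GGGCGG stood in the same window of 32.7% of the 32851 promoters in the table and of 33 of the 65 members with an entry (50.8%). CCAAT stood in 33.9% of all promoters and, among these 4, only in *Kcnip2* and *Kcnh7*. The letters TATAAA (in 12.4% of all promoters), AGATAA (bound by GATA factors, 9.99%), AGGTCA (bound by nuclear receptors, 14.0%), GGTGTGA (bound by T-box factors, 3.33%), TNAAGTG (bound by NKX2 factors, 10.1%) and CACGTG (bound by HEY factors, 6.02%) did not occur in these 4 windows on either strand. A match describes the letters only.

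The identity of the fractions was checked on marker lists. All 6 CM markers (*Tnnt2*, *Tnni3*, *Actn2*, *Myh6*, *Ttn*, *Nkx2-5*) were well above background on all 16 arrays. Their level was not even between the groups. The sums, led by *Myh6*, were 200964 to 236709 for EL, 386525 to 432310 for EH, 487187 to 537733 for PL and 456680 to 531724 for PH. Between EH and EL 1 passed higher and 1 lower, and between PH and PL 1 passed lower. Of 6 atrial genes, 5 passed the test with a higher level in EH than in EL and 6 with a higher level in PH than in PL, and all 5 ventricular genes were lower in EH and in PH. The summed signal of the atrial list, with *Myl4* as its most abundant gene, lay between 168255 and 193252 for EL, 700683 and 719300 for EH, 18777 and 88647 for PL, and 882347 and 998677 for PH. The sum of the ventricular list, led by *Myl2*, lay between 460350 and 481273 for EL, 141017 and 225682 for EH, 328989 and 366580 for PL, and 22877 and 35106 for PH. The ventricular sums of EH all lay above those of PH, as seen in the plot of marker lists.

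Markers of other cells moved with the groups too. Of 6 endothelial genes, 4 passed with a higher level in EH than in EL (*Cdh5*, *Emcn*, *Vwf* and *Pecam1*), and the list, led by *Kdr*, summed to 1070, 1045, 1043 and 1183 for EL, 988, 1170, 2433 and 1897 for EH, 324, 385, 1136 and 1548 for PL, and 461, 557, 592 and 1062 for PH. Fibroblast genes (6 listed, *Dcn* most abundant) passed with a lower level at P2 in 5 genes in ITGA6low cells and in 6 in ITGA6high cells, with sums of 7049 to 11863 for EL, 2754 to 5905 for EH, 285 to 929 for PL and 314 to 447 for PH. The sums of the smooth muscle and pericyte list (7 genes, led by *Acta2*, with *Myh11* not above background on any array) were 44676 to 49416 for EL, 26621 to 34924 for EH, 21348 to 44627 for PL and 5260 to 9260 for PH. Those of the leukocyte list (6 genes, led by *Csf1r*) were 758 to 1842, 1232 to 6823, 400 to 703 and 394 to 612. Those of the erythroid list (5 genes, led by *Hba-a1*) were 3672 to 30440, 5407 to 34112, 386 to 892 and 340 to 446. All 5 epicardial genes, led by *Msln*, passed with a lower level in PL than in EL and in PH than in EH, and their sums were 1832 to 3137 for EL, 479 to 2172 for EH, 39.6 to 174 for PL and 79.5 to 177 for PH. The neural and Schwann cell list, led by *Dbh*, had 3 of 8 genes detected in each group and 4 above background on no array, with sums of 253 to 328 for EL, 389 to 524 for EH, 837 to 1695 for PL and 2475 to 2886 for PH. *Dbh* passed with a higher level in EH than in EL and in PH than in PL. The pacemaker and conduction list, led by *Cacna1g*, had 2 of 6 genes detected in each group and *Hcn4*, *Isl1* and *Cntn2* above background on no array, with sums of 408 to 579 for EL, 429 to 614 for EH, 1405 to 2581 for PL and 1007 to 1714 for PH. *Tbx3* and *Shox2* passed with a higher level in EH than in EL, the latter above background on 1 array of EH, and *Tbx3* with a lower level in PH than in PL. The part of these other cells in the differences below was not tested.

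**Figure D1:**
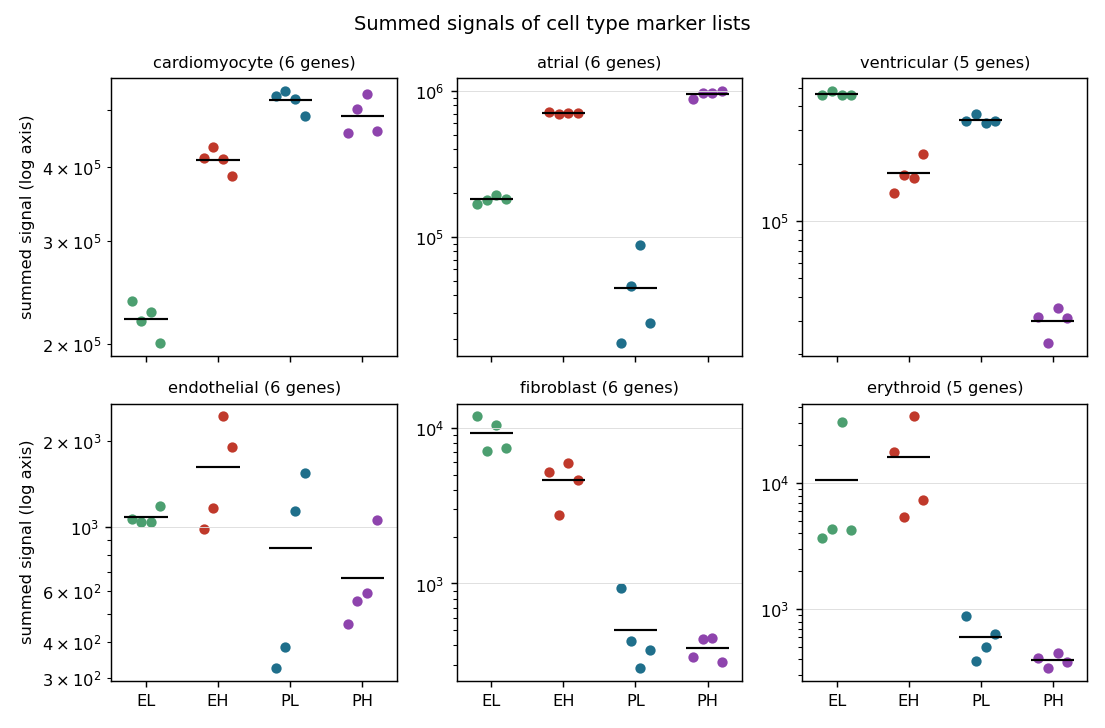
Summed normalized signal of 6 lists of cell type markers (vertical log axes) on the 4 arrays of each group (horizontal axes), with a point per array and a line at the group mean. Atrial sums were 700683 or more in both ITGA6high groups and 193252 or less in both ITGA6low groups, while fibroblast and erythroid sums were lower on all P2 arrays than on all E15.5 arrays.

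Few potassium channel genes were detected. The scanner software marks a spot as well above background, and a gene counts as detected in a group when its probe was marked on all 4 arrays. Detected were 20 of 89 members for EL, 23 for EH, 18 for PL and 17 for PH. These are 22.5%, 25.8%, 20.2% and 19.1%, compared with 35.7%, 37.7%, 33.3% and 34.8% of all probes. Here and below, the member share counts the brightest probe of each gene and the other share every probe, so they are not like measures. In all, 25 members (28.1%, against 40.0% of all probes) were detected in at least 1 group, 14 of them on all 16 arrays, another 20 on some arrays but in no full group, and 44 on no array. Counting any probe of a gene left these 4 group counts as they were. The detected members were spread over the families, with 8 of 17 voltage-gated pore subunits (Kcna to Kcnd), 7 of 18 Kcnq, Kcnh and Kcne genes, 3 of 14 2-pore channels, 2 of 11 inward rectifiers, 2 of 12 channels opened by calcium or sodium, 2 of 7 accessory Kcnab and Kcnip subunits and 1 of 10 silent subunits. Among those above background on no array were *Kcne1*, the known partner of Kcnq1 in the slow delayed rectifier, *Kcnma1*, the pore subunit of the large-conductance calcium-activated (BK) channel, with all 3 of its probes, and *Kcnj6*. *Kcnj9* was above background on 1 array of EH. The share of all spots above background ranged from 38.9% to 41.0% for EL, 40.9% to 46.5% for EH, 35.7% to 39.8% for PL and 37.0% to 40.6% for PH, and transcripts below this limit could not be detected.

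The comparison of the fractions asks which channels mark ITGA6high and ITGA6low cells at each stage. A difference was called when the Benjamini-Hochberg adjusted p over all probes was at most 0.05 and the change at least 3-fold, and "passed" refers to the adjusted p alone. At E15.5, 3 members were called higher in EH (3.37% of 89, against 1.17% of all probes), namely *Kcnh7*, *Kcnmb4* and *Kcnmb1*, and 1 lower (1.12%, against 0.454%), *Kcnj4*. Without the limit on the fold, 5 passed higher (5.62%, against 4.27% of all probes) and 5 lower (5.62%, against 3.83%), which added *Kcnk3* and *Kcnj12* to the higher and *Kcnq1*, *Kcnip3*, *Kcna4* and *Kcnn2* to the lower genes. With the experiment number as a block 8 members passed, and *Kcna4* and *Kcnn2* did not. Over all probes 2568 then passed higher and 2463 lower, in place of 2376 and 2133. At P2, *Kcnh7* and *Kcnmb4* were called higher in PH (2.25%, against 1.73%) and *Kcnj4* and *Kcnip2* lower (2.25%, against 0.916%), while 4 passed higher (4.49%, against 6.15%) and 5 lower (5.62%, against 5.41%). Over all 89 members the median log2 change was 0.00 for EH against EL and -0.03 for PH against PL, beside -0.02 and -0.01 over all probes. In pools of sorted cells, fewer cells with a transcript and less of it per cell cannot be told apart.

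**Figure D2:**
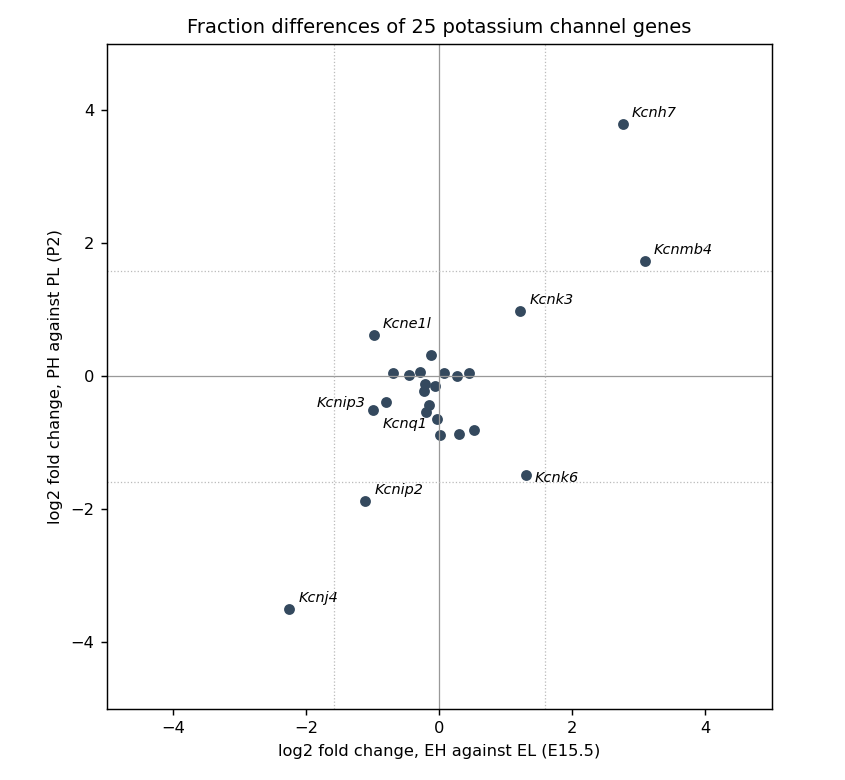
Log2 fold change of EH against EL (horizontal axis) and of PH against PL (vertical axis) for the 25 members detected in at least 1 group, with a point per gene and dotted lines at 3-fold. The fitted values of Kcnh7 and Kcnmb4 lie beyond 3-fold in both comparisons on the ITGA6high side and those of Kcnj4 on the ITGA6low side, whereas most other genes lie near 0 in both. Kcnh7 was well above background on no ITGA6low array and Kcnj4 on no array of PH, so these positions are not exact folds.

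Among the inward rectifiers, *Kcnj4*, which carries part of the current that holds the resting potential, followed the ITGA6low cells and was lower after birth. Its normalized signal was 590, 583, 810 and 670 for EL, 89.7, 146, 164 and 167 for EH, 95.4, 108, 118 and 160 for PL, and 13.2, 4.95, 14.4 and 12.8 for PH. No array of EH reached an array of EL, the arrays of EH and PL overlapped, and no array of PH was well above background. The change from EL to EH was -2.26 ± 0.31 (log2 ± SE, 4.78-fold, adjusted p = 0.00033) and from PL to PH -3.50 ± 0.31 (adjusted p = 3.46e-06). Because PH was not well above background, PL was at least 7.37-fold higher, a bound set against the lowest signals that the software still marks as above background. With another background correction of the raw spot signals (normexp) the P2 change was -1.29 and below 3-fold, with adjusted p = 6.79e-07. The change of this difference between the stages (the interaction, -1.24 ± 0.44) did not pass (adjusted p = 0.205).

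*Kcnj12*, a further subunit of the same current, was measured at 345, 323, 386 and 347 for EL, 479, 497, 468 and 454 for EH, 372, 465, 487 and 466 for PL, and 413, 484, 473 and 478 for PH. All arrays of EH lay above all of EL, by 0.44 ± 0.09 (adjusted p = 0.00583), whereas PL and PH overlapped (0.05 ± 0.09, adjusted p = 0.908). The E15.5 difference did not pass with scaling to the 75th percentile (0.39, adjusted p = 0.0948). *Kcnj2*, the inward rectifier that dominates in adult ventricles, was dim. It was well above background on no E15.5 array (8.48 to 16.9 for EL and 5.23 to 18.5 for EH), on 2 of 4 arrays of PL (19.6, 20.2, 49.2 and 38.3) and on 3 of 4 of PH (20.2, 42.8, 32.1 and 37.9), and its fractions overlapped at both stages.

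Of the delayed rectifiers, *Kcnq1*, the pore subunit of the slow component, was higher in ITGA6low cells at both stages. It gave 1196, 1126, 1224 and 1263 for EL and 604, 576, 590 and 642 for EH, a change of -0.996 ± 0.08 (1.99-fold, adjusted p = 3.18e-06). At P2 it gave 2517, 2445, 2179 and 2393 for PL and 1570, 1473, 1892 and 1779 for PH, a change of -0.51 ± 0.08 (1.42-fold, adjusted p = 0.000581). The groups did not overlap at either stage. The fraction difference was smaller at P2 (interaction 0.485 ± 0.11, adjusted p = 0.0343). This did not pass with scaling to the 75th percentile (adjusted p = 0.346), with the experiment number as a block (0.112), with dim signals set to a floor of each array (0.161), nor when array 2, 6 or 8 of EL, 2, 3 or 6 of EH, 4 or 5 of PL, or 4 or 5 of PH was left out (adjusted p of 0.0519 to 0.0729). The other *Kcnq1* probe, which overlaps the first on the chromosome, gave changes of the same direction that also passed.

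*Kcnh2*, which encodes the rapid delayed rectifier, gave 535 ± 66.6 (SD, n = 4) for EL, 491 ± 45.8 for EH, 1026 ± 74.6 for PL and 1286 ± 106.6 for PH. Its fractions overlapped at E15.5 (-0.12 ± 0.10, adjusted p = 0.618). At P2 the 4 arrays of PH (1397, 1141, 1314 and 1294) lay above those of PL (1045, 1083, 916 and 1059). Yet the change of 0.33 ± 0.10 did not pass (adjusted p = 0.0555). With the experiment number as a block, which assumes pairs at P2, the adjusted p was 0.0481.

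*Kcnh7*, of the same family as *Kcnh2* and known mainly from neurons, was detected only in the ITGA6high groups. Its signal was 33.6, 38.9, 43.0 and 30.7 for EH and 51.0, 56.0, 110 and 59.2 for PH, all well above background. In EL it was 5.38, 11.7, 3.64 and 3.60 and in PL 3.53, 3.51, 11.3 and 3.51, never well above background. EH was at least 2.48-fold and PH at least 3.39-fold higher than the ITGA6low cells of the same stage (fitted log2 changes 2.76 ± 0.43, adjusted p = 0.000927, and 3.80 ± 0.43, adjusted p = 3.24e-05). With normexp these changes were 0.62 and 1.14, both below 3-fold, with adjusted p = 0.000585 and 3.62e-07. With every signal under 23.2 set to 23.2 (a common floor, the highest over the arrays of the lowest signal marked as above background), the E15.5 change was 0.65 and did not pass (adjusted p = 0.0592), and the P2 change was below 3-fold but passed (adjusted p = 0.000108). A second *Kcnh7* probe was well above background on 1 array of PH only and passed at P2 (1.58 ± 0.35, adjusted p = 0.00743) but was not called.

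**Figure D3:**
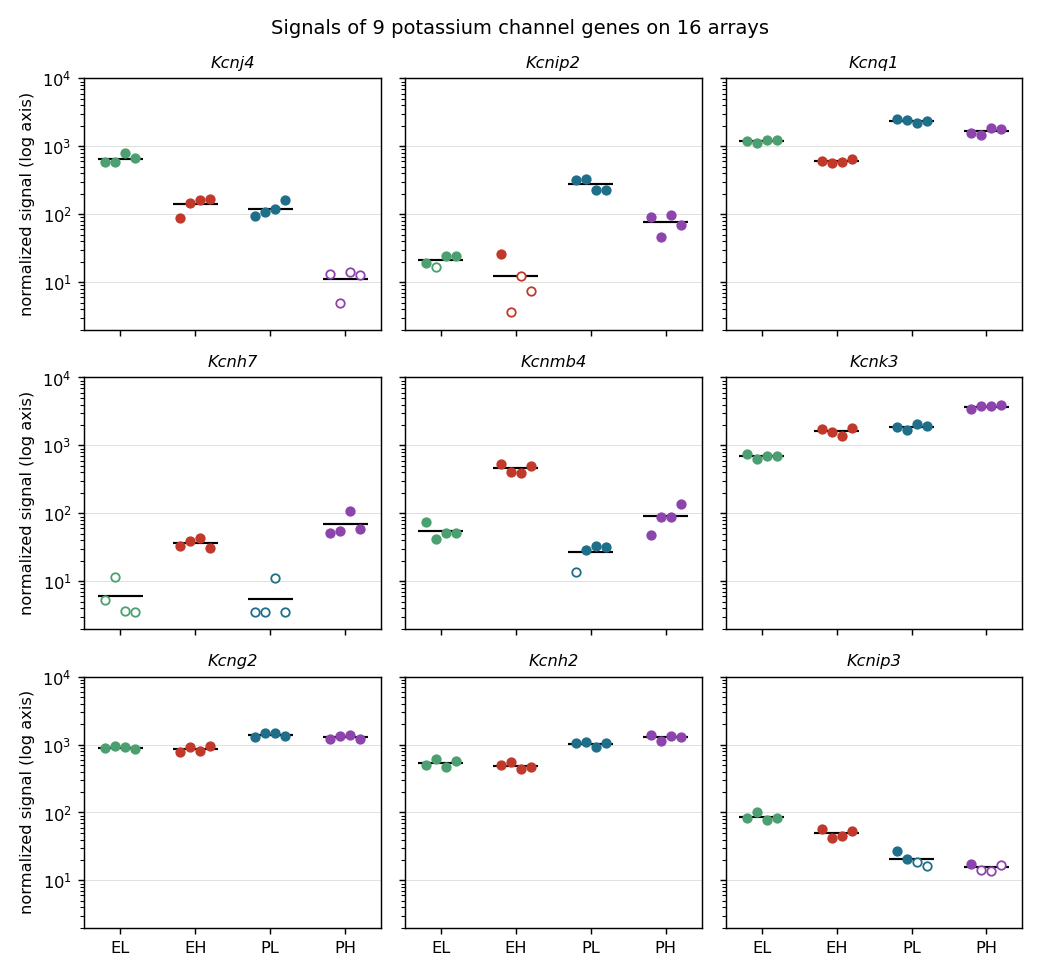
Normalized signal (vertical log axis) of 9 genes on the 4 arrays of each group (horizontal axis), with filled points for arrays on which the probe was well above background, open points for the others and a line at the group mean. Kcnj4, Kcnip2 and Kcnq1 (top row) were lower in PH than in PL, Kcnh7, Kcnmb4 and Kcnk3 (middle row) were higher in ITGA6high cells, and Kcng2, Kcnh2 and Kcnip3 (bottom row) passed the test between the stages.

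Of the voltage-gated pore subunits, *Kcnd2*, which forms the fast transient outward channel, gave 262 ± 21.8, 215 ± 37.7, 229 ± 20.8 and 240 ± 28.6 (SD, n = 4 each) in EL, EH, PL and PH, and none of its 4 comparisons passed (adjusted p from 0.220 to 0.918). *Kcna4*, a subunit of the slow transient outward channel, was 319, 353, 277 and 335 for EL and 185, 188, 218 and 202 for EH. These arrays did not overlap (-0.69 ± 0.19, adjusted p = 0.0399), but the change did not pass with the experiment number as a block (adjusted p = 0.0591), with the test of the study's methods (0.0935), nor without any E15.5 array other than EL 6, nor without array 3 or 5 of PH (adjusted p of 0.0518 to 0.109). At P2 the arrays of *Kcna4* overlapped (190 to 385 for PL, 208 to 313 for PH).

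Of the silent subunits, which conduct only together with other subunits, *Kcng2* alone was detected, at 895 ± 34.6 for EL, 857 ± 84.1 for EH, 1401 ± 90 for PL and 1268 ± 91.9 for PH (SD, n = 4 each), and its fractions overlapped at both stages.

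Among the accessory subunits, *Kcnip2*, the partner of the Kcnd channels that raises their surface expression, was called lower in PH than in PL. It was 319, 333, 231 and 224 for PL and 92.6, 46.9, 98.2 and 70.1 for PH (-1.88 ± 0.46, 3.68-fold, adjusted p = 0.0145). The call was lost with normexp (-1.27, below 3-fold), without array 3 of PH (-1.66, adjusted p = 0.0514) and without the 3 arrays that the software marked for evaluation (-2.14, adjusted p = 0.0542). At E15.5 it was near background (19.3, 16.9, 24.7 and 24.0 for EL, 26.5, 3.64, 12.4 and 7.4 for EH), with overlapping groups. *Kcnip3*, a calcium sensor of the same family that is also known as a repressor of transcription, was 82.7, 102, 77.9 and 82.9 for EL and 58.0, 42.2, 45.0 and 52.7 for EH, without overlap (-0.81 ± 0.15, 1.75-fold, adjusted p = 0.00391).

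Of the 2-pore channels, *Kcnk3*, which carries an acid-sensitive background current, was higher in ITGA6high cells at both stages without reaching 3-fold. It was 750, 634, 693 and 694 for EL and 1727, 1575, 1375 and 1787 for EH (1.22 ± 0.09, 2.33-fold, adjusted p = 1.93e-06). At P2 it was 1877, 1662, 2051 and 1954 for PL and 3412, 3760, 3812 and 3935 for PH (0.99 ± 0.09, 1.98-fold, adjusted p = 5.68e-06). Neither pair overlapped, all arrays were well above background, and the interaction of -0.23 ± 0.13 did not pass (adjusted p = 0.560). *Kcnk6*, another background channel, was 26.0, 14.7, 35.6 and 20.2 for EL and 28.4, 35.7, 122 and 80.7 for EH, with overlap (adjusted p = 0.190), and its interaction of -2.78 ± 0.74 did not pass (adjusted p = 0.065) but passed with the experiment number as a block (0.0309). Its interaction was also called with scaling to the 75th percentile, among detected probes only, without array 2 of EH and without array 4 of PL. At P2 *Kcnk6* was above background on 1 of 4 arrays of PL and none of PH, so the P2 part of the interaction rests on dim signals.

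Among the subunits of calcium-activated channels, *Kcnmb4*, an accessory subunit of the BK channel, was higher in ITGA6high cells at both stages. It was 75.5, 41.6, 50.9 and 51.8 for EL and 541, 410, 387 and 505 for EH (3.09 ± 0.33, 8.51-fold, adjusted p = 3.63e-05). At P2 it was 13.6, 29.2, 33.0 and 32.3 for PL and 47.7, 88.8, 89.2 and 136 for PH (1.73 ± 0.33, 3.32-fold, adjusted p = 0.00249). The groups did not overlap at either stage, and the interaction of -1.36 ± 0.46 did not pass (adjusted p = 0.182) but passed with the experiment number as a block (0.00971). The interaction was also called when array 2 of PL was left out. A second *Kcnmb4* probe was above background on all arrays of EH and 2 of 4 of PH but on none of EL and PL, and was at least 2.56-fold higher in EH than in EL (adjusted p = 0.000708). The P2 change was below 3-fold without array 2 of PL (2.70-fold) and without array 5 of PH (2.84-fold), with normexp it was 0.79 (adjusted p = 0.000322), and with the common floor it was 1.54 (adjusted p = 0.00181). *Kcnmb1*, the BK accessory subunit known from smooth muscle, was called at E15.5 on dim signals only (3.51, 3.61, 3.63 and 3.53 for EL, none above background, and 7.47, 22.9, 11.6 and 13.5 for EH, 1 of 4 above background), and on all arrays its signal lay below the common floor. Its E15.5 change was below 3-fold without array 3 of EH, the array above background (1.56), and did not pass with normexp (0.22, adjusted p = 0.0502). *Kcnn2*, a small-conductance calcium-activated channel, was 363, 398, 371 and 395 for EL and 314, 286, 246 and 270 for EH (-0.46 ± 0.11, adjusted p = 0.0202), without overlap. This did not pass with the experiment number as a block (adjusted p = 0.0748), with scaling to the 75th percentile (adjusted p = 0.0709), or without array 3 or 8 of EL or 6 or 8 of EH (adjusted p of 0.0562 to 0.0658), and its P2 arrays overlapped.

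The difference between the fractions itself changed with stage in few members. Of 89, 1 passed with a more positive difference at P2 (1.12%, against 1.81% of all probes), *Kcnq1*, and 2 with a more negative one (2.25%, against 1.35%), among them *Kcnmb1*. At 3-fold, 0 were called in the positive direction (against 0.602%) and *Kcnmb1* alone in the negative (1.12%, against 0.602%), on the dim signals described above (-1.83 ± 0.32, adjusted p = 0.00561). This was below 3-fold without array 3 of EH (-1.55), did not pass with normexp (-0.31, adjusted p = 0.0878), and was not tested among detected probes only. By limma, an unadjusted p under 0.05 was found for 6 members with a more positive (6.74%, against 6.58% of all probes) and 9 with a more negative difference (10.1%, against 5.72%). *Kcna6* and *Kcne3* were called in the interaction only at a probe other than the brightest. With the median over probes *Kcna6* was called in the positive direction.

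Both E15.5 fractions were spread over 2 slides, one with 2 arrays of EL and 3 of EH and the other with 2 of EL and 1 of EH. On the former and the latter, the change from EL to EH was -2.28 and -2.07 for *Kcnj4*, 2.96 and 2.72 for *Kcnh7*, 2.95 and 3.07 for *Kcnmb4*, 1.23 and 1.05 for *Kcnk3* and -1.02 and -0.99 for *Kcnq1*. On the slide with 1 array of EH, which is assumed to vary like the other groups, *Kcnj4* (adjusted p = 0.130) and *Kcnh7* (0.187) did not pass. With slide as a block all 5 genes still passed, while *Kcna4* did not (adjusted p = 0.0674).

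The comparison of the stages asks how the set changed around birth within each fraction. More members passed than between the fractions, and so did more of all probes. In ITGA6low cells 12 passed higher at P2 (13.5% of 89, against 9.70% of all probes) and 6 lower (6.74%, against 10.0%). In ITGA6high cells 12 passed higher (13.5%, against 9.12%) and 9 lower (10.1%, against 8.37%). Called were 2 higher (2.25%, against 1.60%) and 4 lower (4.49%, against 2.15%) in ITGA6low cells, and 3 higher (3.37%, against 1.30%) and 5 lower (5.62%, against 2.10%) in ITGA6high cells. The median log2 change over the 89 members was 0.02 and 0.01, beside 0.01 and 0.03 over all probes, and most of these members were detected in no group.

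Several channel subunits were higher at P2 in both fractions, with *Kcnip2* among those called in each. *Kcnip2* rose by 3.70 ± 0.46 in ITGA6low cells (13.0-fold, adjusted p = 4.51e-05) and by 2.93 ± 0.46 in ITGA6high cells (7.63-fold, adjusted p = 0.000404), the latter against EH signals of which 1 of 4 was above background, and by 1.63 there with the common floor. No P2 array of this gene overlapped an E15.5 array of the same fraction. *Kcnd2*, the pore subunit that Kcnip2 binds, gave -0.20 ± 0.13 and 0.17 ± 0.13 (adjusted p = 0.373 and 0.453).

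Smaller increases passed for the delayed rectifiers and the background channel. Of 6 CM markers, 5 in ITGA6low and 2 in ITGA6high cells also passed with a higher level at P2, and their part was not tested. *Kcnq1* rose by 0.99 ± 0.08 and 1.47 ± 0.08, *Kcnh2* by 0.94 ± 0.10 and 1.39 ± 0.10, *Kcnk3* by 1.44 ± 0.09 and 1.21 ± 0.09 and *Kcng2* by 0.64 ± 0.08 and 0.57 ± 0.08 in ITGA6low and ITGA6high cells, with adjusted p of at most 0.000156. *Kcnn2* rose in ITGA6high cells (0.62 ± 0.11, adjusted p = 0.00119), with 0.14 ± 0.11 (adjusted p = 0.493) in ITGA6low cells. *Kcnj2* was called higher in PH than in EH (1.93 ± 0.41, adjusted p = 0.00404, at least 2.49-fold with 3 of 4 arrays of PH measured), but the change was below 3-fold with normexp (0.31), did not pass with the common floor (0.52, adjusted p = 0.217), and was not tested among detected probes only. *Kcnj2* also lost this call with a floor of each array on dim signals. Its increase in ITGA6low cells (1.24 ± 0.41, adjusted p = 0.0489) was lost with the experiment number as a block (0.0772), scaling to the 75th percentile (0.0622), a floor of each array on dim signals (0.0547), the common floor (0.298) or the test of the study's methods (0.0575), and when any array of EL, array 3 or 8 of EH, 4 or 5 of PL, or 3, 4 or 5 of PH was left out (adjusted p of 0.0518 to 0.143).

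Others were lower at P2. *Kcnj4* fell by 2.48 ± 0.31 in ITGA6low cells (5.56-fold, adjusted p = 5.11e-05) and by 3.72 ± 0.31 in ITGA6high cells (adjusted p = 1.82e-06, at least 8.58-fold). *Kcnip3* fell by 2.09 ± 0.15 (4.25-fold, adjusted p = 4.02e-07) and by 1.66 ± 0.15 (3.17-fold, adjusted p = 4.05e-06), and was above background on 2 of 4 arrays of PL and 1 of 4 of PH. The second of these changes was just below 3-fold without array 2 of EH (-1.58), and below it with the common floor (-1.08). *Kcnmb4* fell by 1.07 ± 0.33 (adjusted p = 0.0333) and by 2.43 ± 0.33 (5.39-fold, adjusted p = 0.000118), the former not with the median over probes (0.0632), nor without array 2, 6 or 8 of EL or 2 of PL (adjusted p of 0.061 to 0.104). *Kcnk6* fell in ITGA6high cells by 3.35 ± 0.52 (adjusted p = 0.000374, at least 3.51-fold), where it was above background on all arrays of EH and none of PH, and the change was -0.90 with normexp and -1.28 with the common floor, both below 3-fold. These decreases moved together with other cell markers, whose part was not tested. In ITGA6high cells 6 of 6 fibroblast, 5 of 5 epicardial, 6 of 7 smooth muscle and pericyte, 4 of 6 endothelial, 4 of 6 leukocyte and 3 of 5 erythroid genes passed with a lower level at P2. In ITGA6low cells these counts were 5, 5, 4, 0, 1 and 3. Of the 5 ventricular genes, 4 passed with a lower level at P2 in ITGA6high cells and none with a higher level. In ITGA6low cells 1 passed lower and 1 higher. With normexp the stage changes in ITGA6low and ITGA6high cells were 1.96 and 0.91 for *Kcnip2*, -1.95 and -1.41 for *Kcnj4* and -0.87 and -0.50 for *Kcnip3*, so that the second value for *Kcnip2* and *Kcnj4* and both for *Kcnip3* were below 3-fold.

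*Kcne1l*, a small accessory subunit that inhibits Kcnq1 channels, was called lower in PL than in EL at its brightest probe (48.5, 47.3, 45.9 and 55.8 for EL, 3.99, 14.6, 15.9 and 17.0 for PL, at least 2.54-fold, adjusted p = 0.00114) and this probe was above background on no array of PL. The change was -0.58 with normexp and -1.09 with the common floor, both below 3-fold. *Kcne1l* also lost this call with a floor of each array on dim signals. Its second probe gave 19.5 ± 8.20 for EL (SD, n = 4, 1 array above background) and 36.0, 17.9, 32.6 and 18.0 for PL (2 arrays above background), and did not pass (0.46 ± 0.45, adjusted p = 0.584). *Kcnab1*, a cytosolic accessory subunit, was called lower in PL on signals above background on 2 of 4 arrays of EL and none of PL, and the call was lost with scaling to the 75th percentile (-1.56, adjusted p = 0.077) and with the test of the study's methods (0.0873), and all its signals in both groups lay below the common floor. It was also lost without array 2, 3 or 6 of EL and without array 2 or 3 of PL (adjusted p of 0.0505 to 0.0808).

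**Figure D4:**
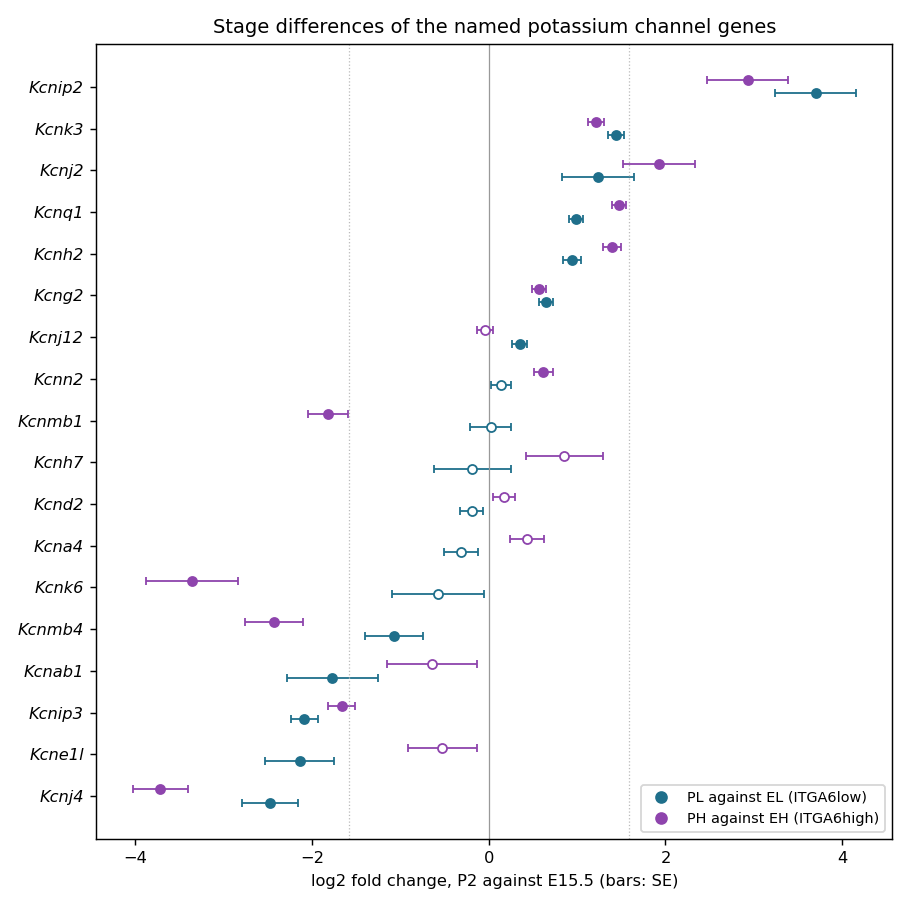
Log2 fold change between P2 and E15.5 (horizontal axis, bars are SE) of 18 named genes (vertical axis) in ITGA6low cells (PL against EL) and in ITGA6high cells (PH against EH), with filled points for an adjusted p of at most 0.05 and dotted lines at 3-fold. Kcnip2 lies beyond 3-fold on the P2 side and Kcnj4 and Kcnip3 beyond 3-fold on the E15.5 side in both fractions.

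Probes of the same gene disagreed for *Kcna6*, a voltage-gated pore subunit, a case chosen after its values were seen. The first 30 of 60 bases of each probe are shown because the fraction difference depended on which of them was read.
Kcna6 brightest probe: tgtcatggtccctctttgtgcctcagttcc
Kcna6 second probe: gagagttgctggtctgatcaaaggagagga
Kcna6 dimmest probe: tcttctcagttctcatgggtacagctctga
The brightest probe, with no position in the files, gave 34.0 ± 6.94, 29.0 ± 5.41, 63.8 ± 7.07 and 54.4 ± 4.91 (SD, n = 4) for EL, EH, PL and PH, and did not pass between the fractions. The second, at chr6:126658424-126658483 (mm9, minus strand), gave 12.9 ± 2.63, 55.4 ± 17.5, 4.59 ± 0.286 and 222 ± 50.6, and was well above background on all arrays of EH and PH and on none of EL and PL. It was at least 3.63-fold higher in EH than in EL (adjusted p = 5.5e-05) and at least 11.3-fold higher in PH than in PL (adjusted p = 2.78e-09). The dimmest, at chr6:126686922-126686981, was above background on no array. In the same way *Kcne3* was called at E15.5, between EH and PH and in the interaction, and *Kcna7* between EL and PL, only at a probe other than the brightest. *Kcna6* was likewise called between EH and PH and in the interaction.

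**Figure D5:**
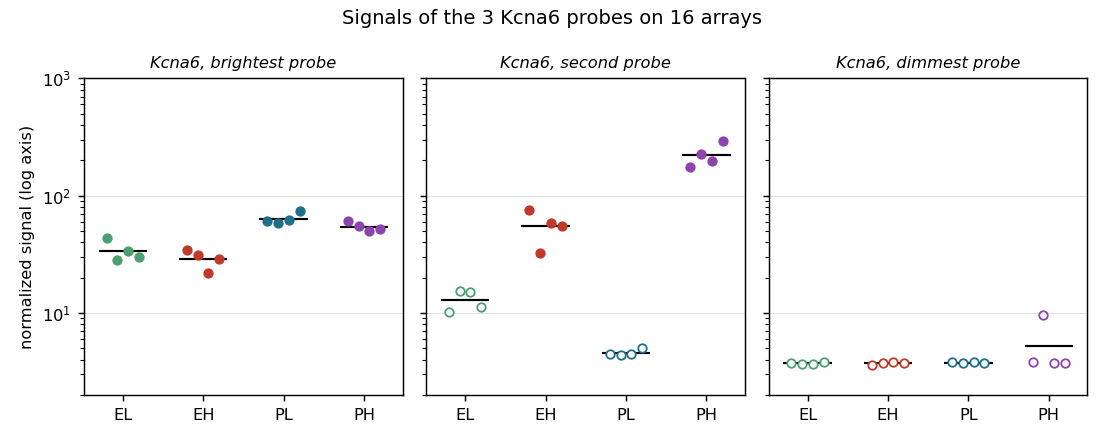
Normalized signal (vertical log axis) of the 3 Kcna6 probes on the 4 arrays of each group (horizontal axis), with filled points for arrays well above background and a line at the group mean. The second probe was above background only in EH and PH, reaching a mean of 222 for PH, while the brightest probe differed by stage and the dimmest was above background on no array.

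Of 18 further genes that modify or accompany these channels, 13 were detected in at least 1 group. Between EH and EL, 5 passed higher and 2 lower, and between PH and PL 1 higher and 4 lower, beside the shares of all probes given above. *Dpp6*, a partner of the Kcnd channels, was 16.3 ± 5.42 for EL and 90.5 ± 16.3 for EH (2.51, adjusted p = 0.00072), and 18.2 ± 7.74 for PL and 31.5 ± 13.9 for PH (SD, n = 4 each). *Nedd4l*, a ubiquitin ligase that acts on Kcnq1 and Kcnh2, was higher in ITGA6high cells at both stages (0.58 and 0.88). *Irx3* and *Irx5*, transcription factors of which IRX5 is known to repress *Kcnd2* in the ventricle, passed with a higher level in EH than in EL and with a lower level in PH than in PL. The log2 changes of *Irx3* were 0.91 and -3.97, with an interaction of -4.88 (adjusted p = 2.02e-06). *Irx5* was above background on no array of EL or PH, and was at least 2.29-fold higher in EH than in EL (adjusted p = 0.0415) and at least 2.42-fold higher in PL than in PH (adjusted p = 0.000174). Between the stages 7 passed higher and 2 lower in ITGA6low cells and 4 higher and 3 lower in ITGA6high cells. The largest increase in ITGA6low cells was that of *Fhl2*, a LIM protein that binds KCNE1, with 2.04 and 1.54. *Hcn2*, a pacemaker channel, was well above background on all arrays and passed in none of these comparisons, whereas *Hcn3* and *Hcn4* were above background on none.

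For comparison, the GIRK subunits left out were higher in ITGA6high cells at E15.5 and P2 by 4.06 and 4.98 (*Kcnj3*) and 1.71 and 1.90 (*Kcnj5*) on the log2 scale. The KATP pore subunits gave 0.74 and 0.46 (*Kcnj11*), both of which passed, and 1.79 and 0.35 (*Kcnj8*), of which the former passed.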

How the data were processed

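RNA of 16 sorted samples (4 per group) was hybridised to 1-colour Agilent arrays, whose number limits the precision. The authors deposited scanner files with Cy3 intensities (processed signal, background-subtracted by Feature Extraction 10.7.3.1, probes placed on mm9) and a table of quantile-normalized log2 values. The latter differed from the values computed here by a median of 0.000294 on the log2 scale.

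Control spots and spots with outlier flags were dropped, spots of a probe were averaged, and intensities were quantile normalized and put on the log2 scale in R 4.3.3. Signals are given on the linear scale of these values. limma 3.58.1 was fitted to all 55681 probes over the 4 groups, with p-values adjusted by the Benjamini-Hochberg method. No spot was saturated, and no arrays held identical values (r of 0.976 to 0.988 within groups). Figures were drawn with matplotlib 3.10.9.

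Described with values were *Kcnj2*, *Kcnj4*, *Kcnq1*, *Kcnh2* and *Kcnd2*, each member called between the fractions or in the interaction, up to 10 members with the largest called change per stage comparison and the 10 brightest members. Some genes that this rule or the lists name are counted but not reported here. Other members were named after their values were seen. Members and lists were chosen with earlier results of these data known. Gene names are those of the array design.

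A probe below background on every array of a group was given a bound, in which the bright group's mean was set against the dim group's mean of, per array, the lowest signal marked well above background or the probe's own signal if higher. Samples of the same number deviated together in EL and EH (r = 0.255, 0.189, 0.450 and 0.379), so the numbers were taken to pair them. The main test left this pairing out, and only the block of the experiment number used it. The study calls the samples of a group independent experiments.

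Alternatives were scaling to the 75th percentile, normexp on mean and background signals (offset 50), the authors' log2 values, detected probes only, a floor of each array on dim signals, the test and 3-fold limit of the study's methods, slide and experiment number as blocks, the median over probes and leaving out each array. Chosen after seeing the data were leaving out the 3 arrays that the software marked for evaluation, using the E15.5 arrays of each slide alone and a common floor for all arrays. The scripts were tested on simulated data. RefSeq held promoters of 65 of 89 members.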

Additional observations from a re-analysis of the deposited data

Results flagged for a closer look

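Of 68 groups of 4 arrays checked among the named genes (those with at least 1 array above background), 4 held an array that stood apart by Dixon's criterion for a gap within a group of 4, where chance gives about 1 in 20. All 4 lay at P2 and in arrays numbered 2. *Kcnj12* gave 371.9 in PL 2, against 465.4 to 487.4 on the other arrays of PL, and 413.5 in PH 2, against 472.8 to 483.6 on those of PH. *Kcnmb4* gave 13.6 in PL 2, against 29.2 to 33.0. *Kcnn2* gave 540.7 in PL 2, against 379.4 to 395.1.

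The change of the fraction difference between the stages passed for *Kcnmb1* (-1.83, adjusted p = 0.00561, limma) and *Kcnq1* (0.485, adjusted p = 0.0343). All *Kcnmb1* signals lay below the common floor, and its call was lost with normexp, with either floor or without array 3 of EH. *Kcnq1* was higher in ITGA6low cells by less at P2 than at E15.5, and *Kcnmb1* was marked above background on 1 array of EH only.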

How the results depend on the processing

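Of 47 tested gene values that passed, 26 passed under every alternative run. Of 1333 alternative values 1217 kept direction and side of the adjusted p limit, 113 did not pass without a change of sign and 3 changed sign. A lost 3-fold call that still passed counts as kept here. Of the alternative values 752 came from leaving out an array, which cannot change the fold when its group is outside the comparison. The authors' values were nearly those used here, so part of this count was fixed in advance. The 3 that changed sign were seen with the floor of each array on dim signals. They were *Kcnab1* at 0.13 between PL and EL, and *Kcnmb1* at -0.11 between EH and EL and 0.24 between PH and EH. This floor differed between arrays (8.47 to 23.2) and moved the median of all probes to -0.32, -0.27, 0.40 and 0.45 in EH against EL, PH against PL, PL against EL and PH against EH, past the 3 values in size and in the same direction, so they say nothing on the direction of these genes, and 63 members passed between PH and EH in place of 21. Over all probes 31704 passed higher and 4831 lower there, in place of 5079 and 4661. The common floor, chosen after seeing the data, left these medians at 0.00, gave *Kcnab1* and *Kcnmb1* no change, and called 2, 2, 4 and 4 members in these comparisons. Members called between EH and EL numbered 4, and 10 with no fold limit, 2 with normexp, 2 with the floor and 4 to 5 on leaving out an array. Between PH and PL they numbered 4, and 9 with no fold limit, 0 with normexp in limma (where 18 passed by adjusted p) and 3 to 5 on leaving out an array. Between PL and EL they numbered 6, with 18, 3 (normexp) and 5 to 7, and between PH and EH 8, with 21, 2 (normexp), 5 (floor) and 8 to 9. Calls over all probes fell with normexp too, from 654 higher and 253 lower to 164 and 43 between EH and EL. Between PH and PL they went from 966 and 510 to 276 and 142. Between PL and EL they went from 891 and 1198 to 208 and 253. Between PH and EH they went from 723 and 1167 to 185 and 240. With the floor of each array they were 422 and 174 between EH and EL and 506 and 668 between PH and EH. For the interaction 1 member was called, and 3 with no fold limit, 2 with scaling to the 75th percentile, with the replicate block or with the median over probes, 0 with normexp, the floor or slide 1 alone, 4 with slide 2 alone (2 arrays of EL and 1 of EH), and 0 to 2 on leaving out an array. The offset of normexp, which adds 50 to every signal, makes folds of dim probes smaller; other causes were not tested. Scaling to the 75th percentile moved the median of all probes to -0.18, -0.14, 0.19 and 0.19 in EH against EL, PH against PL, PL against EL and PH against EH.

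Arrays of PL and PH with equal numbers deviated together with r = 0.375, 0.176, -0.031 and 0.542 (numbers 2, 3, 4 and 5), so that 1 of 4 pairs did not. At P2 the numbers were therefore not taken as known pairs. The replicate block, which is the block of the experiment number, still paired these arrays. Its results that involve P2 arrays rest on that assumed pairing. With the replicate block the interaction of *Kcnq1* (adjusted p = 0.112) and the stage difference of *Kcnj2* (0.0772) did not pass, and the interactions of *Kcnmb4* (0.00971) and *Kcnk6* (0.0309) and the P2 difference of *Kcnh2* (0.0481) did. Counting a gene as detected with 1 array gave 31 members for EL, 40 for EH, 27 for PL and 27 for PH. Signals near background limit what dim members can show.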
